A study of Rattus norvegicus with 18 samples.

Results

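The miR-130 and miR-301 family is a group of microRNAs (miRNAs), short RNAs that bind messenger RNAs and lower their translation. Its rows in a small RNA count table of rat dorsal root ganglia (DRG) are described here. The rows were chosen by name, as those called miR-130a, miR-130b, miR-301a or miR-301b with either arm, and the family itself was picked from earlier results of these data, in which miR-301a-5p was already known to be low with neurotrophin-3. This gave 8 rows from 4 hairpins, out of 753 rows in the table. They are rno-miR-130a-3p, rno-miR-130b-3p, rno-miR-301a-3p and rno-miR-301b-3p with their 5p partners, among them rno-miR-301a-5p; the prefix for rat is left out below. The detection filter asked for over 10 counts in 6 or more of 18 libraries. Only miR-130b-5p and miR-301a-5p, 2 of the 8, passed it and could be tested, against 373 rows of the whole table.

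The ganglia came from cervical levels C6-8 of adult Lister Hooded rats, with 6 rats in each of 3 groups and 1 library per rat. Naïve rats had no operation and no vector. The bPYX+GFP rats had both corticospinal tracts cut in the medullary pyramids (bilateral pyramidotomy, bPYX) and, a day later, AAV1-CMV-EGFP in the forelimb flexor muscles of one side, an adeno-associated virus that carries green fluorescent protein. The bPYX+NT3 rats had the same injury and the same schedule with AAV1-CMV-NT3, which carries human neurotrophin-3. Each library was made from the combined ganglia of a single rat. In the injured groups these came from the injected side, 10 weeks after injury. The CMV promoter is active in many cell types, and the tissue was whole ganglia with neurons and glia. No group had the vector without the injury or the injury without a vector, so bPYX+GFP against naïve holds surgery, injury and vector together and they cannot be told apart. The comparison asks what injury with a control vector does, and bPYX+NT3 against bPYX+GFP asks what neurotrophin-3 adds.

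A miRNA hairpin is cut into a duplex whose strands are named by the arm they come from, 5p or 3p. One strand is usually loaded into an Argonaute protein, and bases 2 to 8 of that strand, the seed, do most of the pairing with a target. The 3p strands of this family share a seed and are the ones usually studied. They are known from blood vessel growth, fat and liver metabolism, inflammation and several tumours, while the 5p strands are less studied. Neurotrophin-3 is a growth factor for the large proprioceptive neurons of the DRG.

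The mature sequences show which rows can share targets and how far rows can be told apart by sequence. RefSeq (assembly GRCr8) held 7 of the 8 rows, each at 1 place in the genome, and miR-301a-3p had no entry. The seed stands in capitals and each sequence runs 5′ to 3′.
miR-130a-3p: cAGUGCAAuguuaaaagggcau
miR-130b-3p: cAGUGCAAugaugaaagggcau
miR-301b-3p: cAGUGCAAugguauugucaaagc
miR-130a-5p: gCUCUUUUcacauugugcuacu
miR-130b-5p: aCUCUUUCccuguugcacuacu
miR-301a-5p: gCUCUGACuuuauugcacuac
miR-301b-5p: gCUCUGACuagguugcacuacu
The 3 listed 3p strands had the seed AGUGCAA in common and were identical over their first 10 bases. Over 22 bases, miR-130a-3p and miR-130b-3p differed by 2 substitutions, whereas miR-301b-3p differed from them by 9 and 10. The 5p strands did not all share a seed: miR-301a-5p and miR-301b-5p had CUCUGAC, miR-130b-5p had CUCUUUC and miR-130a-5p had CUCUUUU. The 2 tested members therefore carried different seeds, and neither carried the 3p seed of the family.

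The letters UUGCACU, the reverse complement of the 3p seed, lay at positions 13 to 19 of 3 of the 4 5p strands, counted from the 5′ end and searched on the RNA strand only. They are in capitals below, because the seed of the 3p arm lies opposite this stretch in the hairpin.
miR-130b-5p: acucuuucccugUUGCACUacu
miR-301a-5p: gcucugacuuuaUUGCACUac
miR-301b-5p: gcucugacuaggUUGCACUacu
Among the 5p rows of the table with a sequence, 5 of 280 (1.79%) held these letters, and miR-130a-5p did not. The 82 bases of the Mir130b hairpin show the arrangement, with both mature arms in capitals.
Mir130b: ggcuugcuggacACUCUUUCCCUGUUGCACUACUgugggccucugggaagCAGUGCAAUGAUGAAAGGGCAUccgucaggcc
In the same annotation Mir130b and Mir301b were neighbours on the same strand within the gene 2610318N02Rikl, Mir301a overlapped Prr11 and Ska2, and Mir130a overlapped another miRNA gene, Mir3590.

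Libraries held 4.70 ± 0.66 M counts given to miRNAs (SD, n = 18; M is the prefix mega), from 3.88 to 6.92 M, so that a count of 0 allows a level of up to 0.434 to 0.773 counts per M (CPM) depending on the library. Group means were 4.77 M in naïve, 4.92 M in bPYX+GFP and 4.41 M in bPYX+NT3. Intervals and limits from counts cover counting error only. The sensory neuron miRNAs miR-182, with a mean of 25163 CPM, and miR-96-5p, with 4283 CPM, both known from sensory ganglia, were abundant. Of 22 marker miRNAs for 8 cell types, 5 had no count in any library, among them miR-183-5p of the same sensory cluster and miR-338-3p of myelinating glia. The 2 glial markers together stayed at or below 1.53 CPM in every library.

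Few counts were given to the family. Its 8 rows held 2455 counts over the 18 libraries, 0.0029% of 84.6 M miRNA counts. miR-301a-5p alone made up 74.9% of them with 1840 counts, and miR-130b-5p followed with 422 counts. miR-301a-3p had 160 counts, between 1 and 20 per library. miR-130b-3p had 28 counts in 13 libraries, with at most 6 in one of them. The miR-301b hairpin gave 4 counts of its 5p arm and 1 of its 3p arm, the latter in naïve replicate 3. Both arms of miR-130a had a count of 0 in all 18 libraries. Among the 373 tested rows miR-301a-5p ranked 249 by mean level, with 21.9 CPM, and miR-130b-5p ranked 327, with 5.05 CPM, against a median of 68.0 CPM.

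The 5p arm held most of the assigned counts in both hairpins with enough counts to say. On average 34.9% of reads were counted for a miRNA. Whether the reads left out came more from either arm was not tested. It took 92.0% of the miR-301a counts (95% Wilson interval 90.7 to 93.1%, 2000 counts) and 93.8% of the miR-130b counts (91.2 to 95.7%, 450 counts). Across the table this arm balance was common. Of the 206 hairpins with at least 100 counts, 107 (51.9%) gave mostly 5p counts and the median 5p share was 61.8%. In 68 of them, miR-301a included, the 5p share was at least as high as in miR-301a. Hairpins with an arm that overlaps a mature miRNA of the opposite strand were not left out. Among 240 hairpins with a count and a RefSeq sequence, 26 had such an arm. In miR-126a, for example, the overlapping 5p arm had 0 counts against 2052261 of the 3p arm. The shares are therefore shares of assigned counts only. The 3p arms of the 4 hairpins together had 189 counts over the 18 libraries, and the 3 of them printed above with a shared seed had 29. The other 160 were of miR-301a-3p, which had no RefSeq entry. The 3p side of the Mir301a hairpin also holds the letters AGUGCAA of that seed.

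**Figure D1:**
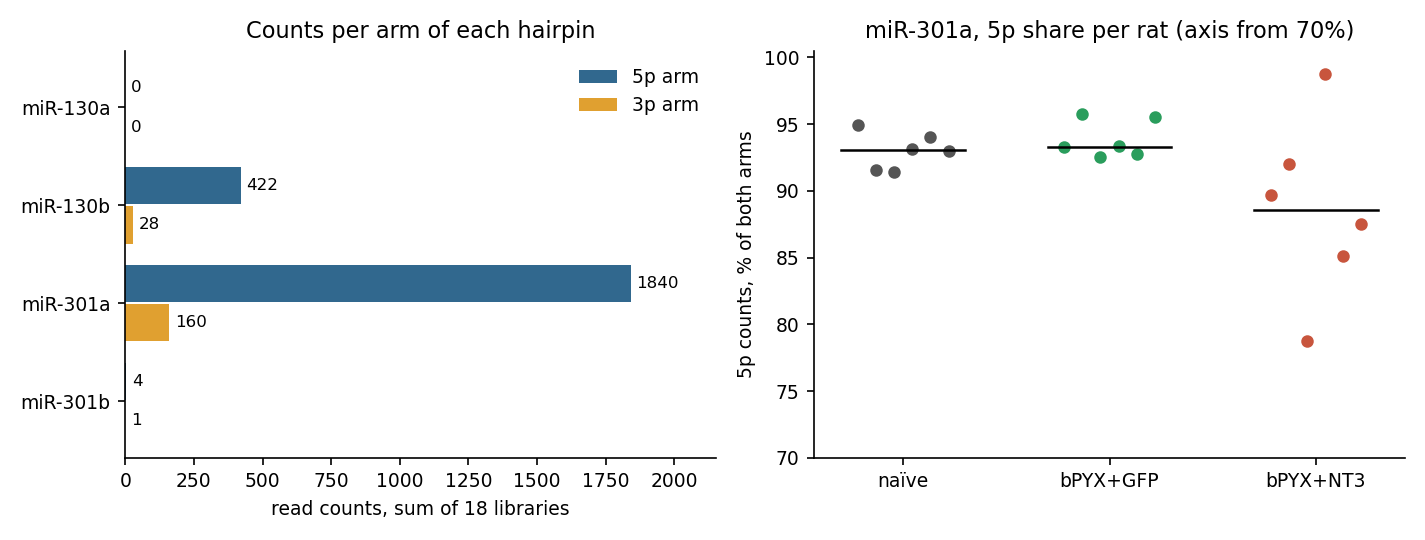
Left, read counts of the 5p and 3p arms of the 4 family hairpins, summed over 18 libraries. Right, 5p counts as a percentage of both arms of miR-301a in each rat, with the group median as a line and an axis that starts at 70%; the bPYX+NT3 rats spread from 78.7 to 98.8%, the naïve rats from 91.4 to 95.0%.

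The absence of counts for miR-130a was shared with the miRNA encoded on the other strand of the same place. In RefSeq, miR-130a-3p overlaps miR-3590-5p and miR-130a-5p overlaps miR-3590-3p, each on the opposite strand, and both miR-3590 rows also had a count of 0 in all 18 libraries. Over the 688 rows with a RefSeq sequence, 94 overlapped a mature miRNA of the opposite strand, and 82 of them (87.2%) had no count at all. Of the 594 rows without such an overlap, 81 (13.6%) had no count. The overlapping rows hold both partners of the same places, so they are not independent cases. Of them, 7 had more than 10 counts in all, such as let-7f-5p with 3518 and let-7a-5p with 3039, against 469 of the rows without overlap. The other 5 family rows with a sequence had no overlap, and each had at least 1 count. Sensory miR-183-5p, endothelial miR-126a-5p and glial miR-338-3p, which also had no count, belonged to the overlapping rows too. Reads that the counting could not assign because features overlapped were 3.26% of all reads. This split was looked at after the zeros had been seen, its part in the zeros was not tested, and a true level of miR-130a cannot be given from these counts.

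**Figure D2:**
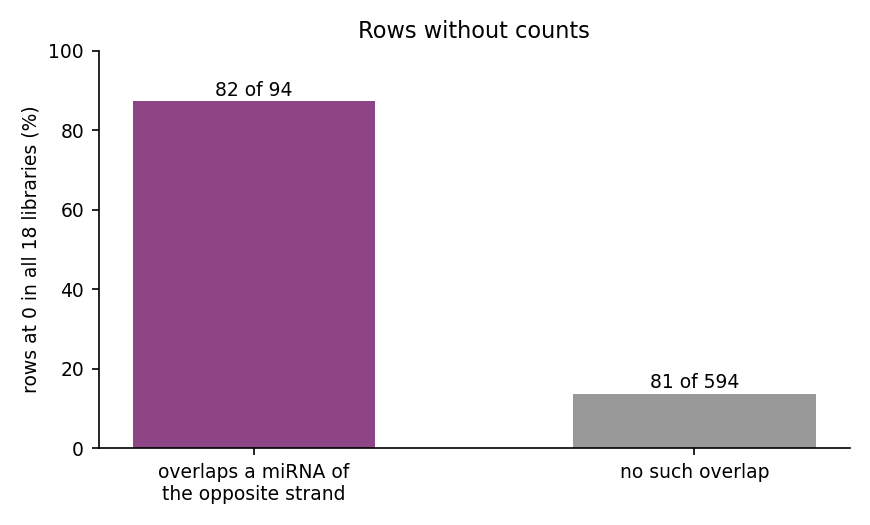
Percentage of rows with a count of 0 in all 18 libraries, for rows whose mature sequence overlaps a mature miRNA of the opposite strand in RefSeq GRCr8 and for rows with no such overlap. Both arms of miR-130a are among the 82 of 94 overlapping rows without counts.

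miR-301a-5p had the smallest relative spread among rats of a group. In naïve rats its level was 24.8 ± 2.02 CPM (SD, n = 6), with a lowest value of 21.7, a median of 24.7 and a highest of 28.0 CPM. In bPYX+GFP rats it was 22.5 ± 4.02 CPM, with 18.0, 21.9 and 29.7 CPM for the lowest, median and highest rat. In bPYX+NT3 rats it was 18.4 ± 2.19 CPM, with 15.7, 18.5 and 20.9 CPM. The bPYX+GFP rats overlapped with both other groups, and their replicate 6 was the highest of all 18. The highest bPYX+NT3 rat lay below the lowest naïve rat. The variance of the counts, divided by the variance that counting error alone gives, was 0.622 in naïve and 0.556 in bPYX+NT3 rats but 3.74 in bPYX+GFP rats. For the 128 tested miRNAs with a mean of 20 to 200 counts, the median of this index was 1.98, 2.77 and 2.61 in these groups.

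miR-130b-5p spread more widely. Its level was 6.15 ± 3.09 CPM in naïve rats (SD, n = 6), with 1.75, 5.68 and 9.83 CPM for the lowest, median and highest rat. In bPYX+GFP rats it was 4.15 ± 2.13 CPM, with 2.17, 3.67 and 8.12 CPM. In bPYX+NT3 rats it was 4.85 ± 1.60 CPM, with 3.26, 4.53 and 7.84 CPM. All 3 groups overlapped, and the naïve rats held both the lowest and the highest of the 18 values. Its variance was 7.48, 4.84 and 3.40 times that of counting error in the naïve, GFP and NT3 groups.

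miR-301a-3p, below the filter, had 52 counts in naïve rats, 43 with bPYX+GFP and 65 with bPYX+NT3. The naïve libraries held 6 to 12 counts and the bPYX+GFP libraries 4 to 11. The bPYX+NT3 libraries reached from 1 count in replicate 4 to 20 counts in replicate 3, wider than either other group on both sides. As levels these were 1.87 ± 0.477, 1.45 ± 0.349 and 2.31 ± 1.31 CPM (SD, n = 6 each). Fitted without the detection filter, its log2 fold change was -0.35 ± 0.27 (SE; edgeR adjusted p = 0.574) in bPYX+GFP against naïve, 0.67 ± 0.42 (edgeR adjusted p = 0.623) in bPYX+NT3 against bPYX+GFP and 0.34 ± 0.42 (edgeR adjusted p = 0.756) in bPYX+NT3 against naïve. None of these had an unadjusted p under 0.05 either.

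**Figure D3:**
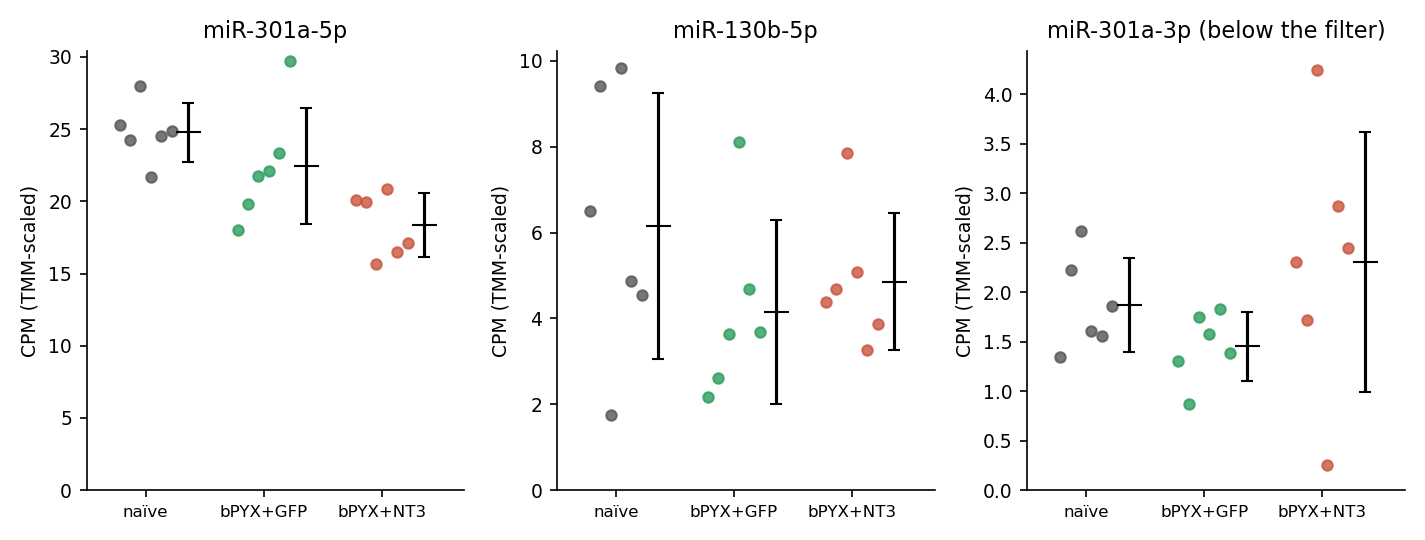
Level of miR-301a-5p, miR-130b-5p and miR-301a-3p in each rat, in CPM after TMM scaling, with 1 point per rat and the group mean ± SD beside the points (n = 6). For miR-301a-5p the bPYX+NT3 rats lie between 15.7 and 20.9 CPM and the naïve rats between 21.7 and 28.0 CPM; for miR-130b-5p all groups overlap.

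After injury with the control vector, neither tested member met an unadjusted p under 0.05. This is the threshold of the study, applied here to the edgeR quasi-likelihood test. In bPYX+GFP against naïve, 79 of 373 miRNAs (21.2%) met it and 0 of the 2 members did. Adjusted over 373 miRNAs by the Benjamini-Hochberg method, 9 were called. DESeq2 called neither member by either criterion. miR-301a-5p had a log2 fold change of -0.14 ± 0.12 (SE; 95% interval -0.37 to 0.09; edgeR adjusted p = 0.538), and 5 of 6 rats lay below the naïve mean. miR-130b-5p had a log2 fold change of -0.57 ± 0.37 (95% interval -1.28 to 0.15; edgeR adjusted p = 0.397), again with 5 of 6 rats below the naïve mean. These outcomes turned on single rats. Without bPYX+GFP replicate 6 the log2 fold change of miR-301a-5p was -0.24, and that of miR-130b-5p was -0.76 without naïve replicate 3 and -0.85 without bPYX+GFP replicate 4; each of these met the unadjusted criterion. In the other direction, miR-301a-5p was at -0.09 without bPYX+GFP replicate 1 and miR-130b-5p at -0.37 without naïve replicate 4. Over all alternatives the adjusted p stayed between 0.220 and 0.737 for miR-301a-5p and between 0.203 and 0.635 for miR-130b-5p. In whole ganglia, fewer cells of a type and less RNA per cell cannot be told apart.

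With neurotrophin-3, miR-301a-5p was lower than in bPYX+GFP rats, at a log2 fold change of -0.28 ± 0.13 (SE). All 6 of 6 bPYX+NT3 rats lay below the bPYX+GFP mean, 3 of them above the lowest bPYX+GFP rat. The family was picked with this difference known, so it is given without a test; 32 of 373 miRNAs (8.58%) met the criterion in this comparison, and the count of members, 1 of 2, follows from that choice, so nothing is read from it. This count went to 0 with scaling by library size only, with the edgeR likelihood ratio test and with the replicate block. The log2 fold change of miR-301a-5p was then -0.26, -0.28 and -0.28. The count was also 0 without bPYX+GFP replicate 5 or 6 or bPYX+NT3 replicate 3, 5 or 6. With libraries left out in turn, the log2 fold change lay between -0.35 and -0.21. After adjustment 0 miRNAs were called by edgeR and 0 by DESeq2, which called 33 unadjusted. By size of change miR-301a-5p ranked 50 of 373. miR-130b-5p had a log2 fold change of 0.25 ± 0.30 (95% interval -0.34 to 0.84; edgeR adjusted p = 0.848), with 4 of 6 rats above the bPYX+GFP mean. Leaving out bPYX+NT3 replicate 3 gave 0.01, leaving out bPYX+GFP replicate 4 gave 0.52, and the interval covers both directions.

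Against naïve rats, the bPYX+NT3 rats had a log2 fold change of -0.43 ± 0.11 (SE) in miR-301a-5p, and all 6 of 6 lay below every naïve rat. This too is a description of the value that drew attention to the family. In this comparison 51 of 373 miRNAs (13.7%) met the criterion, and the count of members, 1 of 2, again follows from the choice of the family. After adjustment edgeR called 0 and DESeq2 called 1, which was no family member. In all, 5 of 373 (1.34%) had groups that did not overlap, with miR-301a-5p among them by the same choice. It ranked 23 of 373 by size. miR-130b-5p had a log2 fold change of -0.34 ± 0.33 (95% interval -0.98 to 0.30; edgeR adjusted p = 0.700), with 5 of 6 rats below the naïve mean and overlapping groups. It was -0.14 without naïve replicate 4 and -0.54 without bPYX+NT3 replicate 3. The 3 comparisons share libraries pairwise, so their values are not independent of each other.

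Single markers of sensory neurons and of smooth muscle met the unadjusted criterion in the same comparisons, but the other tested marker of each list did not. miR-182 of sensory neurons was higher in bPYX+GFP against naïve (log2 fold change 0.20 ± 0.08, edgeR adjusted p = 0.173) and in bPYX+NT3 against naïve (0.19 ± 0.09, edgeR adjusted p = 0.349). Its list partner miR-96-5p was at 0.07 ± 0.08 and -0.04 ± 0.10 in these comparisons. miR-145-5p of smooth muscle was lower in bPYX+GFP against naïve (-0.50 ± 0.14, edgeR adjusted p = 0.0742) and higher in bPYX+NT3 against bPYX+GFP (0.40 ± 0.16, edgeR adjusted p = 0.442). For its list partner miR-143-3p the values were 0.01 ± 0.12 and -0.002 ± 0.11. No other tested marker met the criterion, and the part of these markers in the values of the members was not tested.

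**Figure D4:**
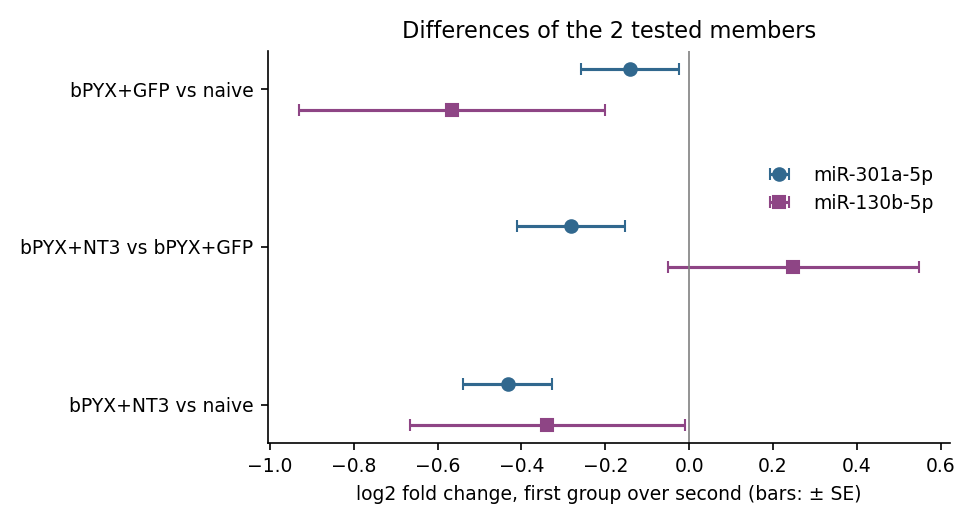
log2 fold change of miR-301a-5p and miR-130b-5p in the 3 comparisons, first group over second, with bars of ± SE from the edgeR fit of 12 libraries each. The values of miR-301a-5p are -0.14, -0.28 and -0.43 and those of miR-130b-5p are -0.57, 0.25 and -0.34.

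The arms of miR-301a were compared within each library, where depth cancels. The mean log2 ratio of 3p to 5p counts, each raised by 0.5, was -3.68 ± 0.30 in naïve and -3.87 ± 0.36 in bPYX+GFP rats (SD, n = 6). The difference of -0.19 was within the spread between rats (two-sided exact permutation test, p = 0.333, 924 splits). It was -0.10 without bPYX+GFP replicate 2 and -0.28 without naïve replicate 1. With counts raised by 5 in place of 0.5 it was -0.08 (two-sided exact permutation test, p = 0.528). In bPYX+NT3 rats the ratio was -3.23 ± 1.36, a difference of 0.64 from bPYX+GFP and of 0.45 from naïve. That spread came from replicate 3, with 74 counts of 5p and 20 of 3p, and replicate 4, with 82 of 5p and 1 of 3p. Without replicate 3 the differences were 0.37 and 0.18, and without replicate 4 they were 1.15 and 0.96. With counts raised by 5 they were 0.64 and 0.56.

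No relation between the 2 tested members was detected among rats. After group means were removed, their log2 levels had a Pearson r of -0.11 over 18 libraries (permutation p = 0.680) and a Spearman rho of 0.07 (permutation p = 0.801). Without bPYX+GFP replicates 1 and 6, the libraries farthest from the median of miR-301a-5p, r was -0.32 (permutation p = 0.208, n = 16). This was the only pair of members with counts enough to compare.

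The miRNAs most like miR-130b-5p among rats were those of white blood cells. Of 371 tested miRNAs outside the family, those most like it by r of group-centred log2 levels over 18 libraries were miR-142-3p (0.81), miR-155-5p (0.80) and miR-142-5p (0.78); miR-142 is restricted to blood cells and miR-155 is induced in activated immune cells. These are the highest of 371 values and are a description. The leukocyte list miR-142-3p, miR-142-5p, miR-150-5p and miR-223-3p had 4 of 4 members tested, none at 0 and none called in any comparison. Its summed level ran from 798 to 2305 CPM in naïve rats, from 1162 to 2438 CPM with bPYX+GFP and from 930 to 1572 CPM with bPYX+NT3. Over 18 libraries, this sum had r = 0.78 and rho = 0.78 with miR-130b-5p. The list holds both arms of miR-142, which were among the most alike; the others had r = 0.73 (miR-150-5p) and 0.70 (miR-223-3p). Within groups r was 0.77 for naïve, 0.90 for bPYX+GFP and 0.59 for bPYX+NT3. In each group the rat with the highest leukocyte sum also had the highest miR-130b-5p. Without naïve replicate 4 and bPYX+GFP replicate 4, the farthest from the median, r was 0.67 (n = 16). All relations with marker lists, 14 of 2 members with 7 lists, were added after the most alike miRNAs had been seen, so they are a description with no test, and what part leukocyte content has in the level of miR-130b-5p was not tested.

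**Figure D5:**
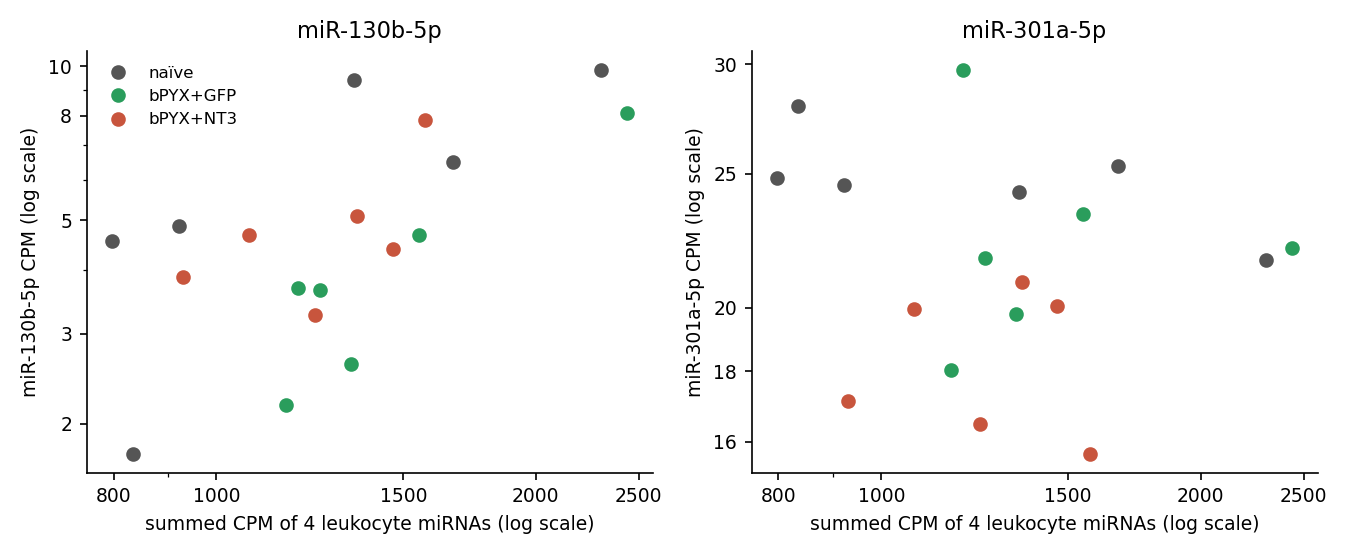
Level of miR-130b-5p (left) and miR-301a-5p (right) in each of 18 rats against the summed level of 4 leukocyte miRNAs, in CPM on log axes, with 1 point per rat coloured by group. miR-130b-5p is highest in the rat with the highest leukocyte sum in each group, whereas miR-301a-5p is lowest in that rat in the naïve and bPYX+NT3 groups.

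The r of miR-301a-5p with the leukocyte sum was -0.20 over 18 libraries, and within groups -0.71 for naïve, 0.01 for bPYX+GFP and -0.02 for bPYX+NT3. The rat with the highest leukocyte sum had the lowest miR-301a-5p in the naïve and the bPYX+NT3 group, but not in the bPYX+GFP group. The lists closest to it were the fibroblast list, miR-199a-3p and miR-214-3p, with r = -0.60, and the sensory neuron list, with r = 0.48. Without the 2 libraries farthest from the median of each list, these became -0.65 and 0.29 (n = 16). Within the naïve, bPYX+GFP and bPYX+NT3 groups r was -0.43, -0.79 and -0.57 with the fibroblast list and 0.81, 0.07 and 0.78 with the sensory neuron list. The miRNAs most like miR-301a-5p were miR-540-3p (r = 0.73), miR-455-5p (0.73) and miR-30a-5p (0.69), again as a description of the highest of 371 values.

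Other miRNAs carry part of the seed of the family 3p strands in their first 9 bases. The sequences of the miR-148 and miR-152 rows and of miR-19a-3p are shown with the shared 6 bases in capitals. Those of miR-19b-3p and miR-291b are not shown.
miR-148a-3p: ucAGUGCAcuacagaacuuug
miR-148b-3p: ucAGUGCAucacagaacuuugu
miR-152-3p: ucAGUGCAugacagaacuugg
miR-19a-3p: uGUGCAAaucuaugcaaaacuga
Of 6 such rows, 3 were tested, all of the miR-148 and miR-152 family, and these 3 were more abundant than any family row. miR-148a-3p was at 5135 ± 764 CPM in naïve rats, 8189 ± 3214 CPM with bPYX+GFP and 5401 ± 681 CPM with bPYX+NT3 (SD, n = 6 each), miR-152-3p averaged 950 CPM and miR-148b-3p 306 CPM. By the unadjusted criterion miR-148a-3p rose in bPYX+GFP against naïve (log2 fold change 0.67 ± 0.19, edgeR adjusted p = 0.0717) and fell in bPYX+NT3 against bPYX+GFP (-0.58 ± 0.17, edgeR adjusted p = 0.217). miR-152-3p fell in bPYX+NT3 against naïve (-0.18 ± 0.07, edgeR adjusted p = 0.313), and miR-148b-3p met the criterion in no comparison. miR-19a-3p had 134 counts in 18 libraries, miR-19b-3p had 1 and miR-291b had 2.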

How the data were processed

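Small RNA libraries were made by the authors with a NEBNext kit and sequenced as single-end reads. The processing notes of the submitters name bcl2fastq 1.8.4, Bowtie2 and HTSeq with the rat build Rnor_5.0; versions of the aligner and counter are not given in the sources used here. The deposited values are raw read counts per mature miRNA, without normalization. The 5 rows given to no miRNA entered neither library sizes nor tests: on average 31.4% of reads had too low an alignment quality, 27.2% were not aligned, 3.26% were ambiguous and 3.20% lay outside miRNAs. Whether the counting used strand is not given in the sources used here.

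The family and the lists of markers and relatives were chosen with earlier results of these data known. Named miRNAs were all family rows, the 3 tested miRNAs most correlated with each tested member, sequence relatives and markers. Rows with more than 10 counts in at least 6 of 18 libraries were tested on the 12 libraries of each pair of groups with edgeR 4.0.16 in R 4.3.3 (TMM scaling, quasi-likelihood F test), with Benjamini-Hochberg adjustment over 373 rows. The study used the likelihood ratio test of edgeR, which was an alternative here. The SE was taken from the F statistic. The fit was tested on simulated data with changes larger than those of the tested members in the main fits, scored at adjusted p. It does not show how often changes of their size would be found. CPM are counts per M after TMM scaling, and limits of a count of 0 are 3 counts of the library total. Correlations used log2 of CPM plus 0.5 and 100000 permutations within groups. Naïve replicate 1, left out by the study, was kept. Lists of 7 cell types were related to the members; that of myelinating glia had too few counts. The planned correlations of 10 pairs of members came down to 1, and the ratio of miR-130b-3p to miR-301b-3p could not be computed, since miR-301b-3p had 1 count. The builds of counts and RefSeq differ, so no coordinates are given and only overlaps and neighbours were read. Alternatives were other scalings, filters and tests (DESeq2 1.42.0), 1 fit of all groups, a replicate block and leaving out each library. For the ratio of the miR-301a arms, counts were also raised by 5 in place of 0.5.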

Additional observations from a re-analysis of the deposited data

Results flagged for a closer look

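The level of 5 measures of the family and the summed level of the leukocyte markers were looked at for rats far from the others in their group, which made 18 groups of 6. In 1 of them the farthest rat stood apart: the summed leukocyte markers were at 2438 CPM in bPYX+GFP replicate 4, against 1551 CPM in the next rat of the group, a gap of 0.696 of the whole range where 0.625 is the 95% critical value of Dixon's test. Chance flags about 1 group in 20. This rat also had the highest miR-130b-5p of its group, at 8.12 CPM.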

How the results depend on the processing

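The fold changes of both tested members kept their direction under every alternative run. Under other scalings, filters and tests, miR-301a-5p lay between -0.15 and -0.12 in bPYX+GFP against naïve, between -0.30 and -0.26 in bPYX+NT3 against bPYX+GFP and between -0.44 and -0.37 in bPYX+NT3 against naïve. The number of members called in bPYX+NT3 against bPYX+GFP fell from 1 to 0 with scaling by library size only, with the edgeR likelihood ratio test and with the replicate block. It ranged from 0 to 1 when libraries were left out in turn, and was 0 without bPYX+GFP replicate 5 or 6 or bPYX+NT3 replicate 3, 5 or 6. In bPYX+GFP against naïve it ranged from 0 to 1, and was 1 without naïve replicate 3 or bPYX+GFP replicate 4 or 6. Where bPYX+NT3 takes part, this count follows from the choice of the family. The cause was not tested. The correlation between the 2 members turned from -0.11 to 0.0671 with Spearman's rho. Signs of relations with marker lists also turned: miR-130b-5p with endothelium became 0.0258 with rho and 0.175 without the 2 farthest libraries, with red blood cells 0.0423 and with fibroblasts -0.0630, both with rho. The relation of miR-301a-5p with the sensory neuron list fell to 0.29 without the 2 farthest libraries.

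Whether replicate numbers pair the rats was not settled. Of 18 pairs with the same number, 6 had a correlation of deviations over 0.1, and the values ran from -0.38 to 0.37. In 6 of the 18 the best match was the library of the same number. Of the 8 family rows, 6 had too few counts to test, the miR-130a arms with 0 among them. A filter of more than 100 counts left miR-130b-5p untested, and the ratio of miR-130b-3p to miR-301b-3p was not run. Without naïve replicate 1, which the study left out, no call of a member changed. Chosen after seeing the data, a minimum of 1000 counts per hairpin left 169 hairpins, of which 59 had a 5p share as high as that of miR-301a. Hairpins with an arm that overlaps a miRNA of the opposite strand were kept here too.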
